A study of Homo sapiens with 8 samples.

Results

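Molecular chaperones are proteins that help other proteins to fold and to stay folded. The 45 genes described here encode the chaperones and cochaperones of the cytosol, 4 chaperones of the mitochondrion and the heat shock factors HSF1 and HSF2, in HepG2 cells grown on a flat or on a porous substrate. They were chosen by name, as the HSP70 and HSP110, HSP90, small heat shock protein (small HSP), DNAJ, BAG and mitochondrial chaperone families, the main HSP90 cochaperones and the 8 subunits of the chaperonin TRiC, by a rule that uses no measured value. Earlier results of these data were known when they were chosen. All 45 are listed among the 38032 gene identifiers of the series, and 42 reached 10 counts in at least 2 libraries and were tested. HSPA1B and DNAJA4 were listed at 0 in every library and HSPA2 held 4 to 8 counts, so that these 3 genes were not tested.

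HSP70 proteins bind unfolded stretches of a protein and release them in a cycle driven by ATP. DNAJ proteins, also called HSP40s, bring clients to HSP70 and start the cycle, and nucleotide exchange factors of the HSP110 and BAG families end it. HSP90 acts later, on proteins that are nearly folded, and TRiC is a ring-shaped chamber in which actin and tubulin fold. When unfolded proteins accumulate, the transcription factor HSF1 binds heat shock elements in promoters and switches on the inducible members. Among them are HSPA1A, HSPA1B, HSP90AA1, DNAJB1, HSPH1, HSPB1 and BAG3, a list that is not complete. HSPA8, HSP90AB1 and TRiC are made in nearly all cells all the time. The liver secretes large amounts of protein, and its cells carry high levels of chaperones.

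HepG2 is a human cell line from a hepatocellular carcinoma, bought from a cell bank and not genetically altered here. In 4 libraries the cells had been grown for 8 days on conventional flat culture plastic (2D-primed), and in the other 4 libraries for the same 8 days on Alvetex Strata, an inert porous polystyrene scaffold (3D-primed). Both groups shared the medium, minimal essential medium with glutamine and foetal bovine serum, and both were freed from their substrate with trypsin before RNA was extracted. The scaffold was seeded more densely than the flat plastic, so that geometry and cell density cannot be told apart, and a single carcinoma line stands for the hepatocyte. The labels number 4 replicates per group and do not say whether they are separate cultures, so that the p-values measure the spread between these libraries, which may be technical.

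The libraries held 21599630 to 27844077 counts. Values are CPM (counts scaled to a common library size) after edgeR's TMM scaling, given as mean ± SD of 4 libraries, and log2 fold changes are 3D-primed over 2D-primed with their standard error (SE). A gene was called at a Benjamini-Hochberg adjusted p (adjusted p below) under 0.05 in edgeR's quasi-likelihood test over the 13943 genes tested. The 8 hepatocyte markers summed to 59470 to 65090 CPM in 2D-primed and 84070 to 94760 CPM in 3D-primed libraries. Its rise came mostly from ALB and AFP, and APOB and SERPINA1 were called lower, at log2 fold changes of -0.25 and -0.14. The stromal marker sum, nearly all of it PDGFRB, was 10.99 to 12.1 and 15.1 to 18.1 CPM. The endothelial sum was 5.58 to 7.72 and 4.16 to 5.70 CPM. The leukocyte sum, nearly all of it CD68, was 73.5 to 76.0 and 32.6 to 42.7 CPM. Markers of one list did not move together. CD68 was called lower and CD14 higher, at log2 fold changes of -1.08 and 0.78. CDH5 was called lower and VWF higher, at -1.56 and 0.62, and PECAM1 was not called. The stromal marker COL1A1 was called lower, at 0.969 ± 0.226 and 0.0703 ± 0.0490 CPM, whereas PDGFRB was called higher. COL1A1 held 16 to 28 counts in 2D-primed and at most 3 in 3D-primed libraries. It passed the filter of 10 counts only through the 2D-primed group, where it is higher. The leukocyte marker PTPRC, the endothelial marker KDR and the stromal markers DCN and COL1A2 reached at most 2 counts in any library. In RNA from whole cultures, fewer cells expressing a gene and less of its RNA per cell cannot be told apart.

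The promoters of these genes are shown first because inducible members are switched on through them by HSF1, itself a member. The part of HSF1 in the changes between the groups was not tested. The factor binds inverted repeats of the unit GAA, and the motifs GAANNTTC and TTCNNGAA, each its own reverse complement and so searched on both strands at once, hold a pair of units. The 3-unit element adds 1 more unit, as NNGAA after the first motif or NNTTC after the second, and therefore always holds a 2-unit element. RefSeq promoters on GRCh38.p14, from 250 bases before to 50 bases after a start, matched 39 of the 45 members by symbol. ST13, CCT6A, HSF1, HSPA14, BAG4 and FKBP4 had no entry. A 3-unit element was found in 6 of the 39 genes (15.4%), against 0.608% of all 27305 genes and 0.490% of all 35116 windows of this length. The 6 genes were HSPA8, DNAJA1, DNAJB6, HSPD1, HSP90AA1 and HSP90AB1. A 2-unit element was found in 19 of the 39 (48.7%), against 16.2% of all genes.

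Each line below gives an element of 3 units in capitals with up to 8 flanking bases, for the 6 genes that have one, in the direction of transcription. The DNAJA1 element lies just inside the transcribed part.
HSPA8, distal, chr11:123062346-123062374, minus strand: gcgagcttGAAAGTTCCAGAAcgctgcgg
HSPA8, proximal, chr11:123062171-123062199, minus strand: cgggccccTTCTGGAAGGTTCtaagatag
DNAJA1, chr9:33025268-33025296, plus strand: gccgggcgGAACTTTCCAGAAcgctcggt
DNAJB6, chr7:157336865-157336893, plus strand: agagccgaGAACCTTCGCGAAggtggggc
HSPD1, chr2:197500060-197500088, minus strand: attttctgGAAAGTTCTGGAAccgagcga
HSP90AA1, chr14:102087112-102087140, minus strand: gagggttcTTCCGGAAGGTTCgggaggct
HSP90AB1, distal, chr6:44247770-44247798, plus strand: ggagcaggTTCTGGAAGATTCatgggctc
HSP90AB1, proximal, chr6:44247823-44247851, plus strand: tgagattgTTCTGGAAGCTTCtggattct
HSPD1 holds a further 3-unit element that overlaps the one shown by 8 bases. The HSPD1 gene and its partner HSPE1 lie head to head on chromosome 2, and the HSPE1 window used, which begins at 197500129, does not reach this element. The annotated span of HSPE1 begins at 197500140, and the element lies just before it. HSPE1 is thus left out of the count of carriers by the start used.

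The 250 bases before a start are given next for DNAJB1, at 1 of its 3 listed starts, and HSPA1A, inducible members that were lower in 3D-primed libraries, and for HSPA8, a constitutive member that was higher. Capitals mark every 2-unit or longer element.
DNAJB1, chr19:14518398-14518647, minus strand: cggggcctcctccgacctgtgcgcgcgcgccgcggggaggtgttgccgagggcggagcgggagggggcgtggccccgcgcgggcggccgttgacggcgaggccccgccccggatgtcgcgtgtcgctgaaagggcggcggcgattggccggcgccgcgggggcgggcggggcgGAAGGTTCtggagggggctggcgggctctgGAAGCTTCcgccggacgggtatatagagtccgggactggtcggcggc
HSPA1A, chr6:31815293-31815542, plus strand: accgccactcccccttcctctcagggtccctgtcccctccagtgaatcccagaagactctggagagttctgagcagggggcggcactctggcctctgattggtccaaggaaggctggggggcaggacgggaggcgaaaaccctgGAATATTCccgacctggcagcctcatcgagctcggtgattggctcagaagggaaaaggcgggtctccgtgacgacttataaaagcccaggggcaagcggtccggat
HSPA8, chr11:123062137-123062386, minus strand: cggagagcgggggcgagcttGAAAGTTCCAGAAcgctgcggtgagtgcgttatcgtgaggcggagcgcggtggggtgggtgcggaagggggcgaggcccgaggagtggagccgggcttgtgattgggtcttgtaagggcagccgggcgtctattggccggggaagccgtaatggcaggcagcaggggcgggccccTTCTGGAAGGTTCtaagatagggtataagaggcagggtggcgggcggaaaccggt
Among members with a promoter entry, the 3-unit element was found in 4 of the 16 that were called higher in 3D-primed libraries, 0 of the 8 called lower and 2 of the 12 not called. The 2-unit element was found in 8 of the 16, 4 of the 8 and 5 of the 12. A match of letters describes the window only, and these counts were not tested against each other.

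Between 2D-primed and 3D-primed cells, the chaperone genes did not move as a block. Of the 42 tested, 28 were called (66.7%), 19 higher and 9 lower in 3D-primed libraries, and 14 were not called. Over all genes tested, 63.9% were called, 32.4% higher and 31.6% lower, so that the share of members called lies near that of all genes. The 4 values of one group lay entirely above those of the other in 27 of the 42 members, against 59.8% of all genes. The median log2 fold change was 0.10 over the members and 0.01 over all genes tested. Of the 5 called members that changed at least 2-fold, DNAJB1, HSPA1A, HSPH1 and HSPB1 were lower in 3D-primed libraries and only DNAJB5, a gene of few counts, was higher. By the share past 2-fold the members resemble all genes, with 17.9% of called members against 18.6% of all called genes, and the median absolute log2 fold change of called genes was 0.45 for members and 0.48 for all. The plot of all 42 log2 fold changes by family shows HSPA1A, DNAJB1, HSPB1 and BAG3 at the low end of their families.

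**Figure D1:**
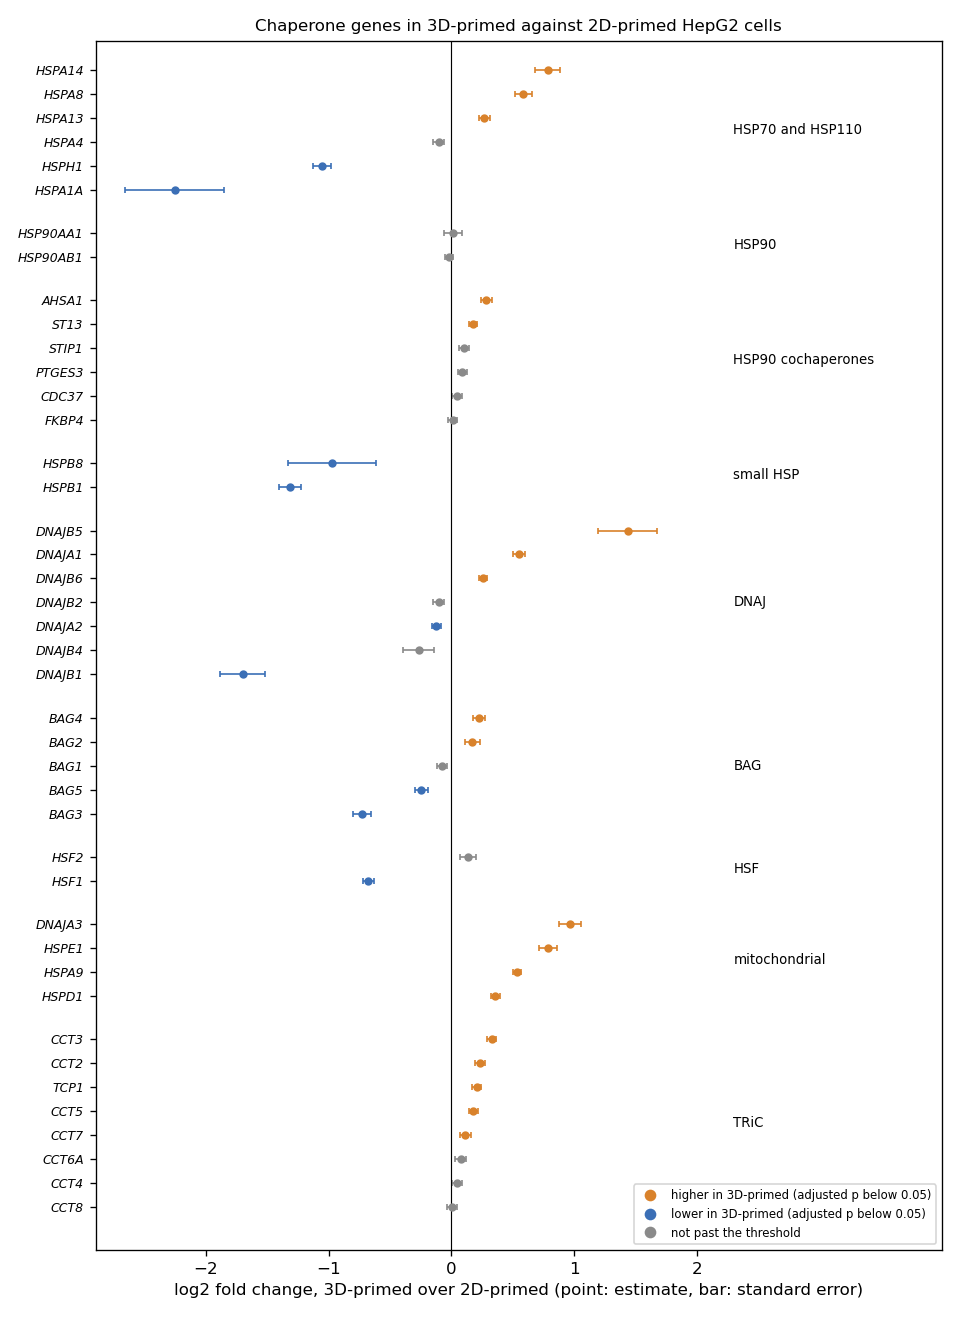
Log2 fold change of each of the 42 tested chaperone genes, 3D-primed over 2D-primed, on the horizontal axis, with genes grouped by family on the vertical axis. Points are edgeR estimates, bars are 1 SE, and colour gives the call at an adjusted p of 0.05. The 4 mitochondrial members lie right of 0, both small HSPs lie left of it, and the TRiC subunits lie between 0.01 and 0.33.

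Of the 6 HSP70 and HSP110 genes tested, 3 were called higher and 2 lower in 3D-primed libraries. Among the 7 cytosolic DNAJ genes 3 were higher and 2 lower. The shares called were 83.3% and 71.4%, against 63.9% of all genes. DNAJB1, HSPH1 and HSPA1A, inducible members of these families, were among those lower, whereas the inducible HSP90AA1 was not called. DNAJB1 (ENSG00000132002, chr19:14514769-14560391), the main stress-induced partner of HSP70, was at 656, 371, 421 and 336 CPM in 2D-primed replicates 1 to 4 and at 124, 142, 141 and 141 CPM in the 3D-primed libraries. All 4 of the 2D-primed values lie above the 3D-primed ones, and replicate 1 stands above the other 2D-primed libraries. The means were 446 ± 144 and 137 ± 8.72 CPM, a log2 fold change of -1.70 ± 0.18 (SE, adjusted p 1.7e-05) or 3.25-fold lower. Without 2D-primed replicate 1 the log2 fold change was -1.46. The 2D-primed libraries also varied more, with a coefficient of variation of 32.3% against 6.36% in the 3D-primed libraries.

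HSPH1 (ENSG00000120694, chr13:31134973-31162388), the stress-induced HSP110 that recharges HSP70 with ATP, was at 219, 183, 194 and 176 CPM in 2D-primed and at 84.6, 97.6, 92.5 and 97.3 CPM in 3D-primed libraries. The groups do not overlap, and the libraries of each lie close together. HSPH1 fell 2.08-fold, by a log2 fold change of -1.05 ± 0.07 (SE, adjusted p 8.5e-07). HSPA4, the constitutive HSP110 member, was at 166 ± 6.77 and 155 ± 6.51 CPM, with a log2 fold change of -0.10 (adjusted p 0.071). HSPA4 was called lower with median-of-ratios scaling (0.048), DESeq2 (0.034), 10 counts in all 8 libraries (0.047) and without 2D-primed replicate 2 (0.041), adjusted p in brackets, so that a small fall is not set apart from none.

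HSPA1A (ENSG00000204389, chr6:31815543-31817946), the inducible HSP70, was at 16.2, 5.10, 6.80 and 5.95 CPM in 2D-primed and at 2.38, 1.95, 0.896 and 1.91 CPM in 3D-primed libraries. It rests on 25 to 353 counts per library, and 2D-primed replicate 1 stands well above the next library. Its log2 fold change was -2.25 ± 0.41 (SE, adjusted p 6.6e-04), or 4.77-fold lower, and -1.74 without that replicate. HSPA1B (ENSG00000204388, chr6:31827738-31830254), its near-identical neighbour, was listed at 0 in all 8 libraries. The coding sequences of both genes are 1923 bases long and differ at 4 positions (99.8% identity), so that reads of one can be given to the other. Among the 261 alternate contigs of the GRCh38 reference, 4 of chromosome 6 held at least 80% of the 50-base pieces of each gene, where a piece of one gene can match the copy of the other. The deposited counts of HSPA1A and HSPA1B are therefore uncertain in level. Counts of other identifiers that could share their reads were not assigned to them. A listed 0 for HSPA1B therefore does not show that the gene was silent. Unnamed identifiers examined for this reason are given at the end.

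**Figure D2:**
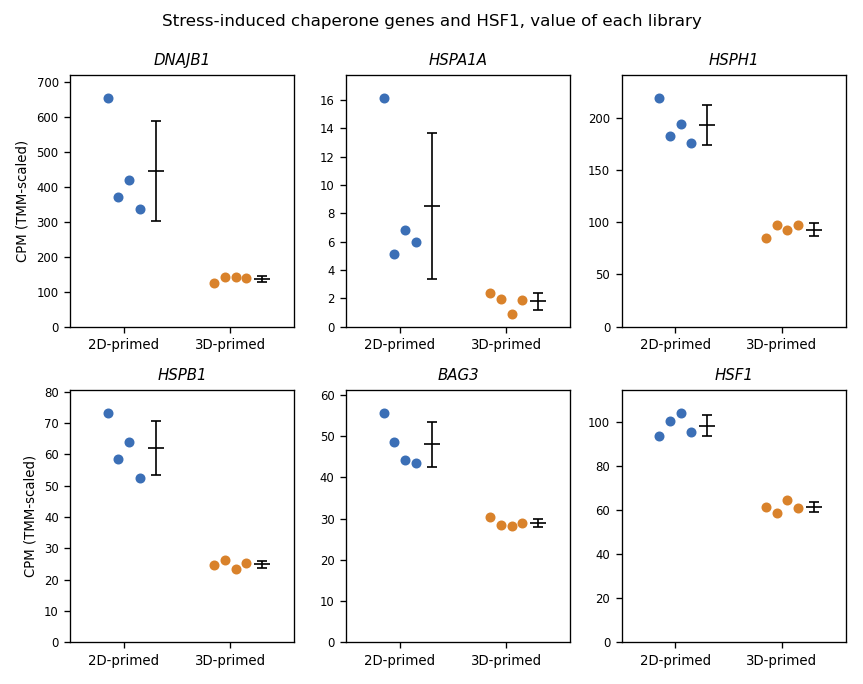
CPM after TMM scaling, on a linear axis from 0, of DNAJB1, HSPA1A, HSPH1, HSPB1, BAG3 and HSF1 in the 4 libraries of each group. Points are libraries in the order of their replicate number, and the black bar is the mean ± SD. All 2D-primed points lie above all 3D-primed points in the 6 genes, and 2D-primed replicate 1 is the highest in each but HSF1.

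Small heat shock proteins hold unfolding proteins in solution without using ATP, and HSPB1 also binds the actin cytoskeleton. HSPB1 (ENSG00000106211, chr7:76302673-76304295) was at 73.1, 58.6, 63.9 and 52.5 CPM in 2D-primed and at 24.6, 26.2, 23.4 and 25.4 CPM in 3D-primed libraries. The groups are well apart, and the 3D-primed values are the tighter. HSPB1 fell 2.49-fold, with a log2 fold change of -1.32 ± 0.09 (SE, adjusted p 9.0e-07). HSPB8, which works with BAG3, was at 0.550, 0.389, 0.285 and 0.422 CPM in 2D-primed and at 0.226, 0.221, 0.143 and 0.238 CPM in 3D-primed libraries. These are 4 to 12 counts, and HSPB8 passed the filter only through the 2D-primed libraries, where it is higher. Its log2 fold change of -0.97 ± 0.36 (SE, adjusted p 0.036) lost its call when 2D-primed replicate 2 or any 1 of the 3D-primed libraries was left out, with adjusted p of up to 0.079, and without 2D-primed replicate 1 or 4 it was not tested.

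BAG proteins release clients from HSP70 by promoting the exchange of its nucleotide. Of the 5 tested, BAG3 and BAG5 were lower, BAG2 and BAG4 higher, and BAG1 was not called. BAG3 (ENSG00000151929, chr10:119651380-119677819), the inducible member that links HSP70 to autophagy and to HSPB8, was at 55.5, 48.6, 44.2 and 43.6 CPM in 2D-primed and at 30.3, 28.4, 28.1 and 29.0 CPM in 3D-primed libraries. No values overlap, and BAG3 was 1.66-fold lower, with a log2 fold change of -0.73 ± 0.07 (SE, adjusted p 1.2e-05). BAG5 was at 28.0, 28.7, 29.6 and 25.8 CPM in 2D-primed and at 24.3, 23.4, 23.1 and 23.9 CPM in 3D-primed libraries, a smaller fall of -0.24 ± 0.05 (SE, adjusted p 0.0017) on the log2 scale. BAG4, an inhibitor of death receptor signalling, moved the other way, from 30.5, 27.4, 30.0 and 27.1 CPM to 33.1, 34.5, 33.9 and 33.0 CPM, a log2 fold change of 0.22 ± 0.05 (SE, adjusted p 0.0024). BAG2 showed a log2 fold change of 0.17 (adjusted p 0.031) with overlapping groups. The call of BAG2 was lost without 2D-primed replicate 1, 2 or 3 or without 3D-primed replicate 1, 2 or 4, with adjusted p of up to 0.087. BAG1 showed a log2 fold change of -0.08 (adjusted p 0.11).

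Of the heat shock factors themselves, HSF1 was lower in 3D-primed libraries and HSF2 was not called. HSF1 (ENSG00000185122, chr8:144291591-144314720), the master regulator of the heat shock response, was at 93.5, 100.6, 104.0 and 95.6 CPM in 2D-primed and at 61.6, 58.9, 64.6 and 60.9 CPM in 3D-primed libraries. The groups lie far apart for their spread, and HSF1 RNA was 1.6-fold lower in 3D-primed libraries, with a log2 fold change of -0.68 ± 0.05 (SE, adjusted p 7.7e-07). HSF2, which pairs with HSF1 and acts in development, was at 15.3, 14.7, 14.9 and 15.9 CPM in 2D-primed and at 18.0, 17.0, 14.95 and 17.0 CPM in 3D-primed libraries. The groups overlap through 3D-primed replicate 3, and the log2 fold change of 0.14 ± 0.07 (SE, adjusted p 0.083) was not called. Without that library the log2 fold change of HSF2 was 0.18 (adjusted p 0.016). HSF1 is regulated mainly as a protein, by release from chaperones and by phosphorylation, which these data do not measure. HSF4, a further heat shock factor that is not among the members, was at 1.17 ± 0.0658 and 0.533 ± 0.245 CPM on 8 to 29 counts and was called lower, with a log2 fold change of -1.12 (adjusted p 0.009).

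HSPA8 and DNAJA1, the abundant constitutive pair of the HSP70 system, were higher in 3D-primed libraries. HSPA8 (ENSG00000109971, chr11:123057489-123063230), the HSP70 that all cells carry, was at 662, 589, 547 and 544 CPM in 2D-primed and at 856, 896, 821 and 942 CPM in 3D-primed libraries. The lowest 3D-primed value exceeds the highest 2D-primed one, and HSPA8 rose 1.5-fold, with a log2 fold change of 0.59 ± 0.07 (SE, adjusted p 3.1e-05). DNAJA1 (ENSG00000086061, chr9:33025273-33039907), a farnesylated DNAJ partner of HSPA8, was at 185, 170, 178 and 165 CPM in 2D-primed and at 256, 262, 238 and 270 CPM in 3D-primed libraries. It too separated the groups, with a log2 fold change of 0.55 ± 0.05 (SE, adjusted p 5.2e-06). Both genes carry a 3-unit element in the windows shown above. So do DNAJB6 and HSPD1, which were called higher, and HSP90AA1 and HSP90AB1, which were not called.

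The remaining HSP70 and DNAJ members moved less or rest on fewer counts. HSPA14, a ribosome-associated HSP70, had a log2 fold change of 0.79, and HSPA13, a microsomal member, of 0.27, and both were called higher. DNAJB6, a suppressor of polyglutamine aggregation, had a log2 fold change of 0.26 and was called higher. DNAJB5 rose from 0.503 ± 0.119 to 1.37 ± 0.182 CPM, on 8 to 45 counts, with a log2 fold change of 1.44 (adjusted p 4.1e-04). DNAJA2 was called lower at -0.12 (adjusted p 0.016), a call lost under upper-quartile scaling. DNAJB2 and DNAJB4 had log2 fold changes of -0.10 and -0.27 and were not called, although DNAJB2 was called without 2D-primed replicate 1 or 3D-primed replicate 3 and DNAJB4 without 2D-primed replicate 4, with adjusted p of 0.041, 0.048 and 0.046.

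The HSP90 pair did not show a difference. HSP90AB1 (ENSG00000096384, chr6:44246166-44253888), the constitutive cytosolic HSP90, was at 2833, 2831, 2871 and 2782 CPM in 2D-primed and at 2734, 2885, 2783 and 2787 CPM in 3D-primed libraries. The groups lie inside each other, with a log2 fold change of -0.02 ± 0.03 (SE, adjusted p 0.67). HSP90AA1 (ENSG00000080824, chr14:102080742-102139699), the inducible form, was at 1194, 966, 991 and 945 CPM in 2D-primed and at 1019, 1074, 969 and 1066 CPM in 3D-primed libraries. Its highest value is that of 2D-primed replicate 1, and its log2 fold change was 0.01 ± 0.07 (SE, adjusted p 0.90). The sign of both values depended on the scaling or on single libraries, with HSP90AB1 at 0.01 under total-count scaling and HSP90AA1 at -0.03 without 2D-primed replicate 4.

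Of the 6 HSP90 cochaperones, AHSA1 and ST13 were called higher and none lower. The share called was 33.3%, against 63.9% of all genes. AHSA1, which stimulates the ATPase of HSP90, was at 82.8, 82.0, 81.1 and 88.0 CPM in 2D-primed and at 103.0, 106.5, 94.0 and 103.6 CPM in 3D-primed libraries. Its groups do not overlap, and its log2 fold change was 0.29 ± 0.05 (SE, adjusted p 3.9e-04). ST13, also known as HIP, which holds HSP70 in its client-bound state, was at 314, 330, 334 and 328 CPM in 2D-primed and at 371, 370, 364 and 368 CPM in 3D-primed libraries, a log2 fold change of 0.17 ± 0.03 (SE, adjusted p 0.0012). STIP1, the bridge between HSP70 and HSP90, PTGES3 (p23), the kinase loader CDC37 and the immunophilin FKBP4 had log2 fold changes from 0.01 to 0.10, and none was called. Without 3D-primed replicate 3, STIP1 and PTGES3 were called at log2 fold changes of 0.13 and 0.10, and STIP1 also without 2D-primed replicate 1.

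All 4 mitochondrial members were called higher in 3D-primed libraries, as were 32.4% of all genes tested. HSPA9, or mortalin, the HSP70 that pulls proteins into the mitochondrion, was at 331, 337, 332 and 331 CPM in 2D-primed and at 471, 496, 479 and 479 CPM in 3D-primed libraries. It is the most even of the members in the 2D-primed group after CDC37, and rose 1.45-fold, with a log2 fold change of 0.53 ± 0.03 (SE, adjusted p 4.3e-07). HSPD1 (HSP60), the barrel of the mitochondrial chaperonin, was at 1644, 1646, 1630 and 1671 CPM in 2D-primed and at 2148, 2158, 2002 and 2142 CPM in 3D-primed libraries, a log2 fold change of 0.36 ± 0.04 (SE, adjusted p 9.7e-06). HSPE1 (HSP10), its lid, was at 159, 148, 137 and 162 CPM in 2D-primed and at 279, 273, 227 and 268 CPM in 3D-primed libraries, a log2 fold change of 0.79 ± 0.07 (SE, adjusted p 6.6e-06). Both are encoded head to head on chromosome 2, HSPD1 at chr2:197486584-197516737 and HSPE1 at chr2:197500140-197503449, so that the annotated spans overlap on opposite strands, and whether the counting used the strand is not given in the sources used here. DNAJA3, the mitochondrial DNAJ, was at 16.8, 17.9, 13.6 and 16.8 CPM in 2D-primed and at 32.3, 31.9, 34.5 and 28.4 CPM in 3D-primed libraries, a log2 fold change of 0.97 ± 0.09 (SE, adjusted p 5.2e-06). DNAJA3 also has a copy on 1 alternate contig of chromosome 16, so that its listed counts may not hold all of its reads. Transcripts of the mitochondrial genome itself made up between 1.40 and 1.81% of a 2D-primed library and between 2.47 and 2.98% of a 3D-primed library, and their part in these rises was not tested.

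**Figure D3:**
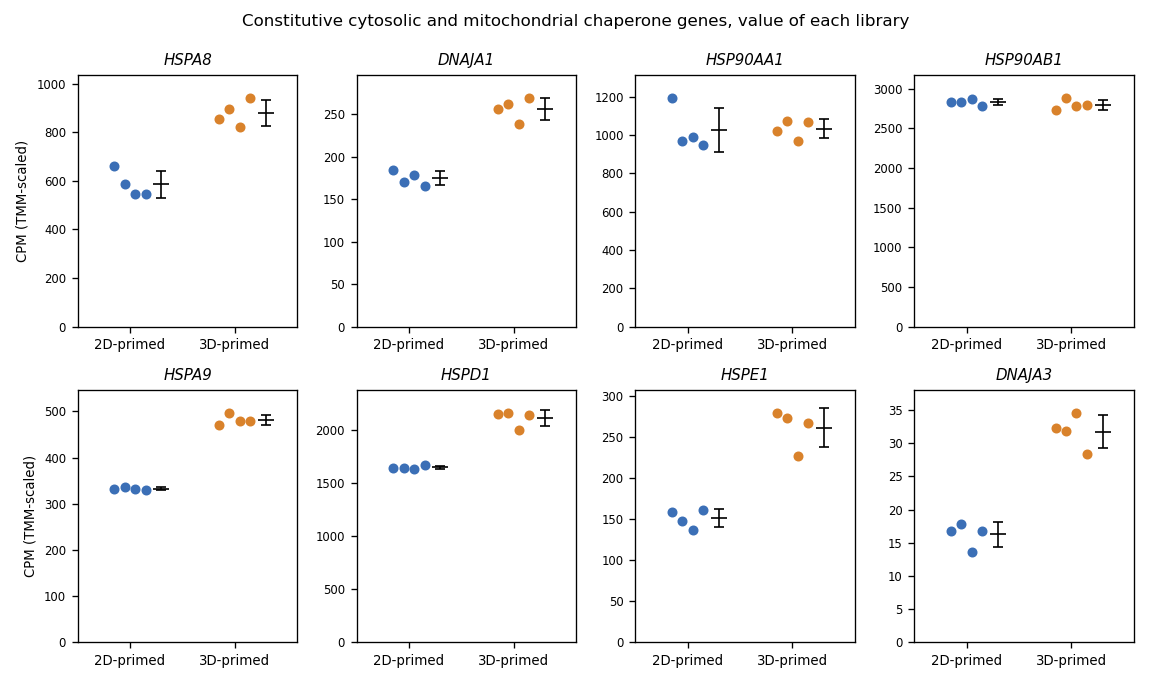
CPM after TMM scaling, on linear axes from 0, of 4 constitutive or HSP90 genes of the cytosol (upper row) and the 4 mitochondrial members (lower row) in each library. Points are libraries in the order of their replicate number, and the black bar is the mean ± SD. HSPA8, DNAJA1 and the mitochondrial genes separate the groups, whereas HSP90AA1 and HSP90AB1 overlap.

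Beyond the members, mitochondrial import and quality-control genes were more mixed. Of 17 tested, 8 were called higher and 3 lower, with a median log2 fold change of 0.11. The share called, 64.7%, lies near the 63.9% of all genes. PMPCB, a subunit of the peptidase that removes targeting sequences, showed a log2 fold change of 0.72 (adjusted p 3.3e-07), and TIMM44, which tethers HSPA9 to the import channel, of 0.58 (adjusted p 1.6e-06). CLPX, the unfoldase of a matrix protease, was lower at -0.69 (adjusted p 9.4e-07).

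TRiC is built of 8 different subunits, each present in equal number in both rings. Of the 8 genes, 5 were called higher in 3D-primed libraries (TCP1, CCT2, CCT3, CCT5 and CCT7), none was called lower, and the median log2 fold change was 0.15. The share called, 62.5%, lies near the 63.9% of all genes, of which 32.4% were called higher. The changes are small beside those of DNAJB1, HSPA1A, HSPH1 and HSPB1. CCT3 was at 271, 283, 280 and 278 CPM in 2D-primed and at 352, 353, 334 and 358 CPM in 3D-primed libraries, a log2 fold change of 0.33 ± 0.04 (SE, adjusted p 2.2e-05). CCT2 was at 156, 156, 162 and 153 CPM in 2D-primed and at 188, 191, 177 and 182 CPM in 3D-primed libraries, a log2 fold change of 0.24 ± 0.04 (SE, adjusted p 3.1e-04). Both genes separate the groups by more than their spread. TCP1 (ENSG00000120438, chr6:159778498-159789703), the subunit that gave the complex its name, was at 275, 272, 263 and 267 CPM in 2D-primed and at 308, 318, 300.5 and 315.5 CPM in 3D-primed libraries, a log2 fold change of 0.21 ± 0.04 (SE, adjusted p 4.7e-04).

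The other subunits lay closer to 0. CCT5 showed a log2 fold change of 0.18 (adjusted p 0.0019) with separate groups, and CCT7 of 0.11 (adjusted p 0.044) with overlapping groups. The call of CCT7 was lost without any 1 of the 2D-primed libraries or 3D-primed replicate 1 or 2, with adjusted p of up to 0.14. It was lost in 11 of the 17 alternatives, among them median-of-ratios scaling (0.063), no filter (0.077) and filterByExpr (0.052). CCT4, CCT6A and CCT8 had log2 fold changes of 0.05, 0.08 and 0.01 and were not called, and CCT6A was called only under upper-quartile scaling and without 3D-primed replicate 3. The sign for CCT8 changed with the scaling. The number of subunits called higher ran from 4 to 6 when single libraries were left out, and 3D-primed replicate 3 is the library without which it was 6.

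Per kilobase of the reference transcript, the subunit RNAs were not at equal levels, although the complex holds each protein in equal number. CCT7 stood highest, at 220 ± 5.6 CPM per kb in the 2D-primed and 238 ± 12 in the 3D-primed group, and CCT6A lowest, at 77.5 ± 1.4 and 81.7 ± 3.8 CPM per kb. In 2D-primed libraries CCT5 (79.7 ± 1.6) and CCT2 (81.8 ± 2.0 CPM per kb) lay within their spread of CCT6A or of each other, as did TCP1 (114 ± 2.3) and CCT8 (115 ± 3.5 CPM per kb). Of the sum over the 8 subunits per kilobase, CCT3 made up 14.7 ± 0.281% in the 2D-primed and 16.6 ± 0.385% in the 3D-primed group. The share of CCT8 went from 12.04 ± 0.252% to 10.9 ± 0.238%. Which transcript of each gene was present is not given by the counts, so that these levels rest on the reference transcript.

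**Figure D4:**
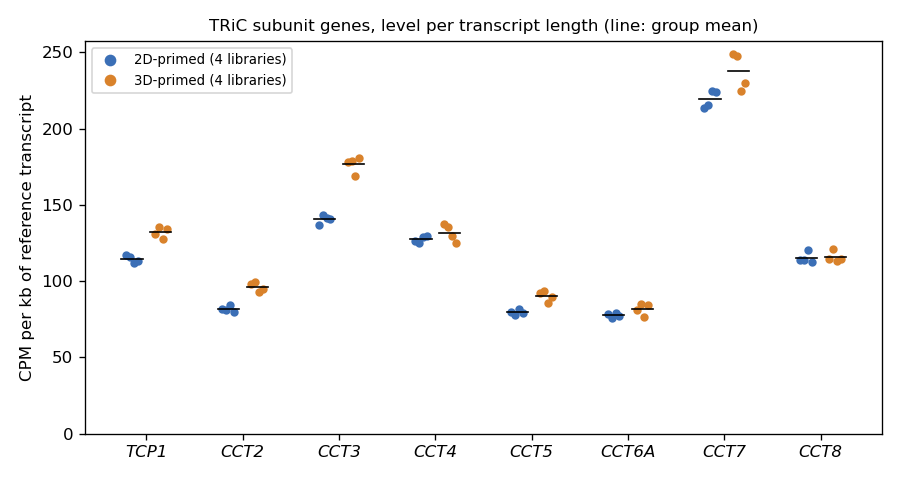
Level of the 8 TRiC subunit genes in CPM per kilobase of the reference transcript, on a linear axis from 0, in the 4 libraries of each group. Points are libraries and short lines are group means. CCT7 lies highest in both groups, and CCT3 shows the widest gap between the groups.

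Genes of the main clients of TRiC were described next. Of 15 actin and tubulin genes, a list that includes the actin-related ACTR2 and ACTR3, 9 were called lower, ACTR3 among them, and none higher in 3D-primed libraries, with a median log2 fold change of -0.44. The share called, 60.0%, lies near the 63.9% of all genes, of which 31.6% were called lower. The list was not tested against the TRiC subunits. ACTG1 and ACTB, the cytoplasmic actins, were at 6167 ± 87.3 and 3419 ± 175 CPM in 2D-primed and at 2324 ± 143 and 1213 ± 26.0 CPM in 3D-primed libraries. Their log2 fold changes were -1.41 ± 0.05 (SE, adjusted p 1.4e-08) and -1.50 ± 0.04 (SE, adjusted p 7.9e-09). TUBB6, a beta tubulin, showed a log2 fold change of -1.80 (adjusted p 5.2e-07), whereas TUBA1A, TUBA1B, TUBA1C and TUBB4B were among the 6 not called. In 2D-primed libraries 1.24 ± 0.0392% of the counts fell on actin and tubulin genes and 0.207 ± 0.00311% on TRiC genes. The shares in 3D-primed libraries were 0.618 ± 0.0136% and 0.234 ± 0.00869%.

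Helpers of TRiC followed no common direction. Of 8 prefoldin and cofactor genes tested, which deliver clients to TRiC or regulate it, TXNDC9 and PFDN4 were called higher, with log2 fold changes of 0.56 and 0.39, and PFDN1 lower, at -0.30. PFDN6 was listed at 0, which does not show that the gene was silent, since copies on alternate contigs were searched for the members only. Of these 8 genes 37.5% were called, against 63.9% of all genes. Of the 5 cofactors that assemble tubulin dimers after TRiC, TBCA, TBCB, TBCC and TBCD were called higher, at 0.24, 0.32, 0.19 and 0.19, and TBCE was not called.

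Ratios within a library do not depend on how libraries are scaled, and 6 pairs of members were compared by a two-sided exact permutation test of 4 against 4, whose smallest possible p is 0.0286. The count of DNAJA1 over that of DNAJB1 went from a log2 ratio of -1.30 ± 0.361 to 0.90 ± 0.121, so that DNAJB1 held more counts than DNAJA1 in every 2D-primed library and fewer in every 3D-primed one. The difference was 2.21 (exact p 0.0286, adjusted over the 6 pairs 0.0429). HSPH1 over HSPA4 went from 0.21 ± 0.123 to -0.74 ± 0.0993, and also changed sign in every library. HSPA1A plus HSPA1B over HSPA8 fell by 2.74 on the log2 scale, within the limits on HSPA1A given above. With HSPA1B listed at 0, its numerator is the listed count of HSPA1A alone. Reads under other identifiers are not in it, so that it does not give the level of inducible over constitutive HSP70. HSPD1 over HSPE1 fell by 0.43, from 3.45 ± 0.0966 to 3.02 ± 0.0867. These 3 pairs gave the same exact p and adjusted p as DNAJA1 over DNAJB1. In DNAJA1 over DNAJB1 and in HSPA1A plus HSPA1B over HSPA8, the genes moved in opposite directions with groups apart. The p of these ratios was thus fixed by the single genes and is no further support.

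No difference was detected for the other two pairs. HSP90AA1 over HSP90AB1 differed by 0.03 (exact permutation p 0.80, adjusted 0.80), and HSPA9 over HSPA8, the mitochondrial over the cytosolic HSP70, by -0.06 (exact permutation p 0.514, adjusted 0.617). A p above the threshold does not show that the ratios were equal, and the spread of HSP90AA1 over HSP90AB1 in the 2D-primed group, an SD of 0.151, comes mostly from replicate 1.

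**Figure D5:**
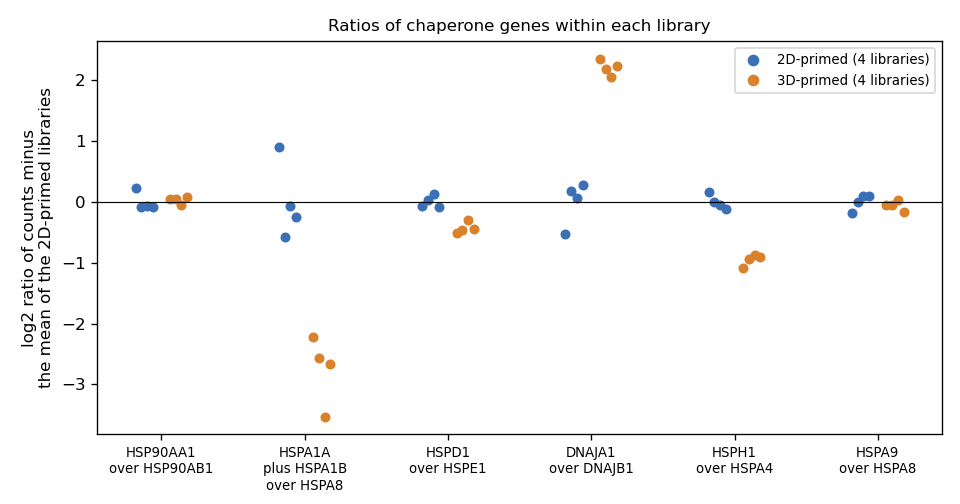
Log2 ratio of the counts of 6 pairs of chaperone genes in each library, each pair shifted so that the mean of its 2D-primed libraries is 0. Points are the 4 libraries of each group. DNAJA1 over DNAJB1 lies about 2.21 higher in 3D-primed libraries, 3 pairs lie lower, and HSP90AA1 over HSP90AB1 and HSPA9 over HSPA8 overlap.

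By level per kilobase of reference transcript, HSP90AB1 led the members in both groups, at 1107 ± 14 CPM per kb in the 2D-primed and 1095 ± 25 in the 3D-primed group, followed by HSPD1 at 734 ± 7.7 and 941 ± 33 CPM per kb. In 2D-primed libraries HSP90AA1 (317 ± 36), HSPE1 (272 ± 20) and HSPA8 (259 ± 24 CPM per kb) came next, each within an SD or so of its neighbour. In 3D-primed libraries the order was HSPE1 (470 ± 43), HSPA8 (388 ± 23) and HSP90AA1 (320 ± 15 CPM per kb), which lay further apart. DNAJB1 went from 199 ± 64 to 61.2 ± 3.9 CPM per kb. The share of the counts that fell on the 45 genes was 1.13 ± 0.0497% for the 2D-primed and 1.24 ± 0.0462% for the 3D-primed group. The order and the share both use the listed counts of HSPA1A and HSPA1B, whose level is uncertain. Reads of theirs under other identifiers would be missing from both, so that the rise of the share is not settled.

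Chaperone networks outside the members were described by lists chosen for their function. Of 27 other cytosolic chaperones and cochaperones tested, 16 were called higher and 4 lower, with a median log2 fold change of 0.16. The share called was 74.1%, against 63.9% of all genes, where 32.4% were called higher and 31.6% lower. DNAJC7, which passes clients between HSP70 and HSP90, showed a log2 fold change of 0.89 (adjusted p 1.8e-07). CRYAB, a small HSP, was at 1.79 ± 0.352 and 0.275 ± 0.0512 CPM, a log2 fold change of -2.68. It held 34 to 55 counts in 2D-primed and 6 to 9 in 3D-primed libraries, and passed the filter only through the 2D-primed group, where it is higher. Of 16 chaperones of the endoplasmic reticulum, where secreted proteins fold, 13 were called higher and none lower, with a median of 0.22. The share called among these genes of the endoplasmic reticulum was 81.2%. HYOU1, the HSP110 of this compartment, showed a log2 fold change of 0.68 (adjusted p 2.3e-07), and CRELD2 and MANF, both induced when its proteins misfold, of 1.63 and 0.93. HSPA5 (BiP), the HSP70 of this compartment, had a log2 fold change of 0.19.

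Immediate early genes, which respond within minutes to serum, stress or handling, also differed between the groups and are given beside the inducible chaperones for that reason. Of 15 tested, 9 were called lower and 3 higher in 3D-primed libraries, with a median log2 fold change of -1.25. ZFP36, JUND and DUSP1 had log2 fold changes of -1.64, -0.72 and -1.63, whereas EGR1, IER2 and JUNB were higher, at 1.66, 0.87 and 0.31, and FOS was not called. The 17 genes, with IER3 listed at 0 in every library, summed to 1330 to 1506 CPM in 2D-primed and 853 to 1120 CPM in 3D-primed libraries. Their part in the falls of DNAJB1, HSPH1, HSPB1 and BAG3 was not tested.

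Single libraries often held the extreme value of their group. 2D-primed replicate 1 was the highest of its group in 6 of the 9 members called lower. Over all 42 members tested it was the highest in 14, and 2D-primed replicate 3 in 19. 3D-primed replicate 3 was the lowest of its group in 29 of the 42. These counts were not set against those of all genes and were not tested. Without 2D-primed replicate 1, 18 members were called higher and 9 lower, and without 3D-primed replicate 3, 23 and 9.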

How the data were processed

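Polyadenylated RNA of 4 2D-primed and 4 3D-primed HepG2 libraries was sequenced in read pairs from a strand-specific kit. The authors deposited expected counts per gene, estimated with Salmon on the Ensembl human cDNA of GRCh38 and summed to genes with tximport, as whole numbers without scaling. Whether transcript length enters the counts is not given in the sources used here. Identifiers were named from GENCODE, and 34977 of 38032 matched. The rest, with 2.38 to 2.57% of the counts, stayed in the test without a name.

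The filter kept a gene if 2 or more libraries held 10 or more of its counts. The 13943 genes kept were fitted in edgeR 4.0.16 (R 4.3.3) by glmQLFit and glmQLFTest after TMM scaling, with Benjamini-Hochberg adjustment over all of them. The SE is the log2 fold change over the root of the F statistic. The biological coefficient of variation was 0.0934. Counts of same-group libraries had a chi-square per degree of freedom of 6.34 to 17.4, above counting noise. Ratios used a pseudocount of 1 and the exact permutation test in scipy 1.17.1. Levels per kilobase used the reference transcript of GENCODE. The edgeR step was tested on simulated data of 13683 genes with 200 changed, recovered 97% of them, and 3.96% of its calls were false. Only well-counted genes were changed, by folds above the median of the genes called here, with a single common dispersion. In the real data 63.9% of genes were called, so that these rates do not carry over to them.

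The members and lists were chosen with earlier results of these data known. All 45 members are accounted for. Values in all libraries are given for a marker of each role, for the 2 members of each family with the smallest p and for the member called against its family's median with the smallest p, and each list is given by its counts and its 3 genes of smallest p. The values of 1 gene that this rule names are not reported here. EGR1, IER2, JUNB, FOS, HSPA5, HSF4, ACTR2, ACTR3, the other tubulins and the tubulin cofactors were named outside this rule, after their values were seen.

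Alternatives were median-of-ratios, total-count and upper-quartile scaling, DESeq2 1.42.0 and limma-voom (limma 3.58.1). Further ones were no filter, filterByExpr, 10 counts in all 8 libraries, each library left out and the replicate number as a block. The last were HSPA1A and HSPA1B summed, and for ratios a pseudocount of 10. With HSPA1B listed at 0 in every library, that sum is HSPA1A alone and could not differ from the analysis reported.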

Additional observations from a re-analysis of the deposited data

Results flagged for a closer look

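Within a group of 4 libraries, 5 values of the chaperone genes stood far from the other three by Dixon's ratio, a test that flags about 1 in 20 groups by chance. With 96 groups examined, chance alone would give about as many. HSPA1A was at 16.2 CPM in 2D-primed replicate 1, against 5.10 to 6.80 CPM in the rest of its group. The log2 ratio of HSP90AA1 over HSP90AB1 was -1.25 in the same library, against -1.56 to -1.53. HSPD1 was at 2002 CPM in 3D-primed replicate 3, against 2142 to 2158 CPM. DNAJB1 was at 124 CPM in 3D-primed replicate 1, against 141 to 142 CPM. CCT8 was at 224 CPM in 3D-primed replicate 2, against 210 to 212 CPM.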

How the results depend on the processing

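Of the 42 tested members, 26 kept direction and side of the threshold under every alternative run, among them DNAJB1, HSPA1A, HSPH1, HSPB1, BAG3, HSF1, HSPA8, DNAJA1 and the 4 mitochondrial members. Members called higher ran from 17 to 24 and called lower from 8 to 10, and all genes called from 8357 to 9070. Upper-quartile scaling gave 24 higher and 8 lower, and moved the median log2 fold change of TRiC to 0.20 (0.1977), of the HSP90 cochaperones to 0.1463, of BAG to -0.0267 and of HSF to -0.2184. It called 5 cochaperones and 1 HSF gene higher and 1 DNAJ gene lower, and total counts called 4 cochaperones higher. The median of all genes was 0.01 in the analysis reported and 0.06 under upper-quartile scaling. Small HSPs called lower fell to 1 with DESeq2, without a filter, and with filterByExpr or 10 counts in all 8 libraries, where HSPB8 is not tested and the median is -1.3242 and -1.3227. DESeq2 also called 1 BAG gene higher. The cause of the other changes was not tested.

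Values near 0 changed sign. The HSP90 median was 0.0252 with total counts, 0.0472 with upper quartile, 0.0001 with limma-voom and 0.0039 without a filter, HSP90AB1 was 0.0122 and 0.0342 under those 2 scalings, and CCT8 was -0.0028 with median-of-ratios, -0.0031 with DESeq2 and -0.0001 with filterByExpr.

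Leaving out single libraries gave HSP90 medians of -0.0262 to 0.0385, HSP90AA1 from -0.0260 to 0.0928, CCT8 from -0.0208 to 0.0277 and FKBP4 from -0.0188 to 0.0227. It called 1 to 2 BAG genes, 0 to 1 HSF genes and 2 to 4 HSP90 cochaperones higher and 1 to 2 small HSPs lower, whose median ran from -1.3890 to -1.0646. The log2 ratio differences ran from 2.032 to 2.3007 for DNAJA1 over DNAJB1, -2.9369 to -2.4414 for HSPA1A plus HSPA1B over HSPA8, -0.4711 to -0.3884 for HSPD1 over HSPE1 and -0.9892 to -0.8940 for HSPH1 over HSPA4, with an exact p of 0.0571, the smallest that 3 against 4 can give.

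The labels do not say whether the replicate numbers pair the libraries. Deviations of same-numbered libraries correlated at -0.0433 to 0.0574, and those of differently numbered ones at -0.0825 to 0.1097. Such values cannot show whether the libraries were grown or processed in pairs. With the number as a replicate block 8490 genes were called, and among members 18 were higher and 8 lower, 4 TRiC genes were higher, 1 small HSP was lower and the HSP90 median was 0.0000. The 4 ratio differences of 2.2071, -2.7423, -0.4295 and -0.9506 then had an exact sign-flip p of 0.125, the smallest that 4 pairs allow. HSPB8, at 4 to 12 counts a library, rests on few reads, and HSPA2, at 4 to 8, could not be tested.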

Other observations

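Identifiers without a name in the annotation used here were also examined, since the copies of HSPA1A and HSPA1B on alternate contigs could carry reads under other identifiers. Among those of at least 100 CPM on average, the 2 with the largest falls, chosen after their values were seen, were ENSG00000237724 and ENSG00000212866. ENSG00000237724 was at 1204, 635, 697 and 537 CPM in 2D-primed and at 136, 148, 152 and 152 CPM in 3D-primed libraries, a log2 fold change of -2.38 ± 0.22 (SE, edgeR adjusted p 5.6e-06). ENSG00000212866 was at 1404, 657, 747 and 548 CPM in 2D-primed and at 161, 162, 158 and 166 CPM in 3D-primed libraries, a log2 fold change of -2.38 ± 0.25 (SE, edgeR adjusted p 1.7e-05). In both, as in HSPA1A and DNAJB1, 2D-primed replicate 1 was the highest library. The files do not pair these identifiers with a gene, and whether they hold reads of HSPA1A or HSPA1B was not tested.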
